A study of Mus musculus with 22 samples.

Results

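The colony-stimulating factors, stem cell factor and their receptors were followed across the sorted stroma of a mouse mammary tumor. The group was taken by gene symbol and has 10 of the 41388 genes in the deposited tables: the 5 ligand genes *Csf1*, *Il34*, *Csf2*, *Csf3* and *Kitl*, and the 5 receptor genes *Csf1r*, *Csf2ra*, *Csf2rb*, *Csf3r* and *Kit*. All 10 were expressed highly enough to be tested. No measured value entered their choice, although they were chosen with earlier results of these data known.

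RNA had been sequenced from 22 libraries of stromal cells. These cells were freed of GFP+ tumor cells and sorted by TdTomato (TdT) and CD45, the pan-leukocyte surface protein encoded by *Ptprc*. All mice were C57BL/6, postnatal day 56, and carried the PyMT-BO1 line (MMTV-BO1 in the labels, which call the tumors orthotopic where the stated design and the paper call them subcutaneous). All also carried Osx-cre, a Cre transgene driven by a tetracycline-responsive osterix (*Sp7*) promoter, and the Ai9 reporter, which marks with TdT every cell in which Cre has ever been active and all its descendants. Doxycycline silences this Cre. The paper says in general that its experiments after the first ones used mice given doxycycline, which its methods describe as fed until weaning, and the labels do not state it for these mice. Of the libraries, 11 came from mice labelled wild type, which are the Osx-cre;Ai9 controls (4 inoculated), and 11 from mice labelled Cdh2-cKO;Ai9, a conditional knockout of N-cadherin (6 inoculated). The paper reports on the wild type libraries alone. In each genotype there were 2 libraries of TdT single positive cells (TdT+;CD45-) and 3 each of double positive (TdT+;CD45+), CD45 single positive (TdT-;CD45+) and double negative cells (TdT-;CD45-).

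The libraries held from 16594228 to 26784003 reads counted on genes. Levels below are normalized CPM, counts scaled to the library size with TMM factors, and the floor of 3 counts corresponded to between 0.1 and 0.2 normalized CPM, counting error only. *Ptprc* was between 465 and 1690 normalized CPM in the 12 CD45+ libraries and between 2.40 and 337 in the 10 CD45- libraries. In the CD45- libraries it was 76.6, 86.0, 160 and 337 in wild type TdT+;CD45- replicate 2, Cdh2-cKO TdT+;CD45- replicates 2 and 1, and wild type TdT-;CD45- replicate 3, and at most 38.6 in the other 6. The wild type TdT-;CD45+ replicate 2 stood apart among the CD45+ libraries, with *Ptprc* at 1690, the T cell gene *Cd3e* at 478 against at most 88.5 elsewhere, and *C1qa*, a macrophage gene, at 126 against at least 718 in the other 11. The 7 fibroblast markers summed to between 3320 and 44000 in CD45- and between 48.2 and 165 in CD45+ libraries. *Sp7* was under the floor in all 22 libraries. The targeted gene *Cdh2* was not lower in the libraries labelled Cdh2-cKO: in CD45- cells it was between 12.5 and 19.1 there and between 4.51 and 8.95 in wild type (TdT+;CD45-, log2 fold change 1.08 ± 0.841 (SE), adjusted p = 0.661; TdT-;CD45-, 1.37 ± 0.693, adjusted p = 0.599; edgeR). Counts over a whole gene do not show whether an exon was lost, so the genotype is given below as it is labelled.

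As background, these ligands are secreted or membrane-bound proteins that control the survival, growth and maturation of blood cells. CSF1 (M-CSF) and IL-34 are unrelated in sequence but bind the same receptor tyrosine kinase, CSF1R, on monocytes and macrophages, and are needed for most tissue macrophages. GM-CSF (*Csf2*) acts through a specific alpha chain (*Csf2ra*) joined to a beta chain (*Csf2rb*), G-CSF (*Csf3*) through the homodimeric receptor encoded by *Csf3r* on neutrophils and their precursors, and stem cell factor (*Kitl*) through the receptor tyrosine kinase KIT on hematopoietic progenitors, mast cells and melanocytes. In tumors, fibroblasts are a known source of CSF1, and CSF1R on macrophages is a drug target.

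The promoters of 2 ligands and 2 receptors are shown here because the genes moved in opposite directions below. They are the RefSeq sequences (GRCm38.p6) from 250 bases before to 50 bases after the start of transcription, which were given for 6 of the 10 genes. The capitals mark GAGGAA on either strand, the core recognized by PU.1 (*Spi1*), the transcription factor of myeloid cells. Among the ligand genes of the deposited annotation (GRCm38), *Csf1* spans chr3:107741048-107760469, *Il34* chr8:110741829-110805924, *Kitl* chr10:100015630-100100413, *Csf2* chr11:54247271-54249667 and *Csf3* chr11:98701263-98703629. The *Csf1* promoter lies on chromosome 3, at chr3:107760420-107760719 on the minus strand, and the *Kitl* promoter at chr10:100015571-100015870 on the plus strand. The *Csf2ra* promoter lies at chr19:61228369-61228668 on the minus strand and the *Csf3r* promoter at chr4:126024409-126024708 on the plus strand.
Csf1: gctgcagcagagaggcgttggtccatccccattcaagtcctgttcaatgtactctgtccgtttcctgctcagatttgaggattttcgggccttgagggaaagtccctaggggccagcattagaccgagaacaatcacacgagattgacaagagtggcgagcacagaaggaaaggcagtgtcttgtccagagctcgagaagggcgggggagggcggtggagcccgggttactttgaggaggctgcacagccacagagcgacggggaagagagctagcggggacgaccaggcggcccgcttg
Kitl: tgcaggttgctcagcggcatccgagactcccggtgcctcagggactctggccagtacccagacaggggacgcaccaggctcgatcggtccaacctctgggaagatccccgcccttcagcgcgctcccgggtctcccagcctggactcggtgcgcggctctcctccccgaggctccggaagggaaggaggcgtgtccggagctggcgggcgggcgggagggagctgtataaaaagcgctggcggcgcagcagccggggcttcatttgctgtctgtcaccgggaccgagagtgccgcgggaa
Csf2ra: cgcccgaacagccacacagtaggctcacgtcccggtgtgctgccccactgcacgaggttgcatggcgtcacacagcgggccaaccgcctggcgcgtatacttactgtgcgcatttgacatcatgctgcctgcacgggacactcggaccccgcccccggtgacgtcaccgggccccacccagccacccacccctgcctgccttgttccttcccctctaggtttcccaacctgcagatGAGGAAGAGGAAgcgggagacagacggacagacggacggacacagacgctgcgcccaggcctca
Csf3r: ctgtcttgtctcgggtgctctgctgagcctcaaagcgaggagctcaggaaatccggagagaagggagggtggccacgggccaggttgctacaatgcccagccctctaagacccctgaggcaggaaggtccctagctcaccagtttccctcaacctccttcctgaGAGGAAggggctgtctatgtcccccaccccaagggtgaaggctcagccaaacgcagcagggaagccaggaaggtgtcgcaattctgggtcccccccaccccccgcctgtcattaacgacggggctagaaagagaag
The motif was found 2 times in the *Csf2ra* promoter, one directly after the other, and in 1 place in the promoters of *Csf3r* and *Kit*. It was absent from those of *Csf1*, *Kitl* and *Csf2*. Of 32851 RefSeq promoters of the same length, 28.3% held it, so a match is common. The AP-1 motif TGANTCA, held by 7.81% of the promoters, was found in none of the 6. These matches are descriptions of letters in a window, and binding was not measured.

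To learn which cells supplied the ligands and which carried the receptors, both CD45+ populations were compared with both CD45- populations in each genotype. In wild type mice, *Csf1*, *Il34* and *Kitl* were higher in CD45- cells, and *Csf1r*, *Csf2ra*, *Csf2rb* and *Csf3r* were higher in CD45+ cells, by edgeR's quasi-likelihood test on all 22 libraries with p-values adjusted by Benjamini and Hochberg's method and called at 0.05 or less. Of all 15018 genes tested, 26.4% were called higher in CD45- and 24.4% higher in CD45+ cells, so single calls in this comparison are common, and the median log2 fold change over all genes was 0.06. In mice labelled Cdh2-cKO the same 7 genes were called in the same directions, and *Csf2* was called as well, higher in CD45- cells. There 27.8% of all genes were called higher in CD45- and 22.6% higher in CD45+ cells, with a median of -0.01. *Csf3* and *Kit* were called in neither genotype.

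**Figure D1:**
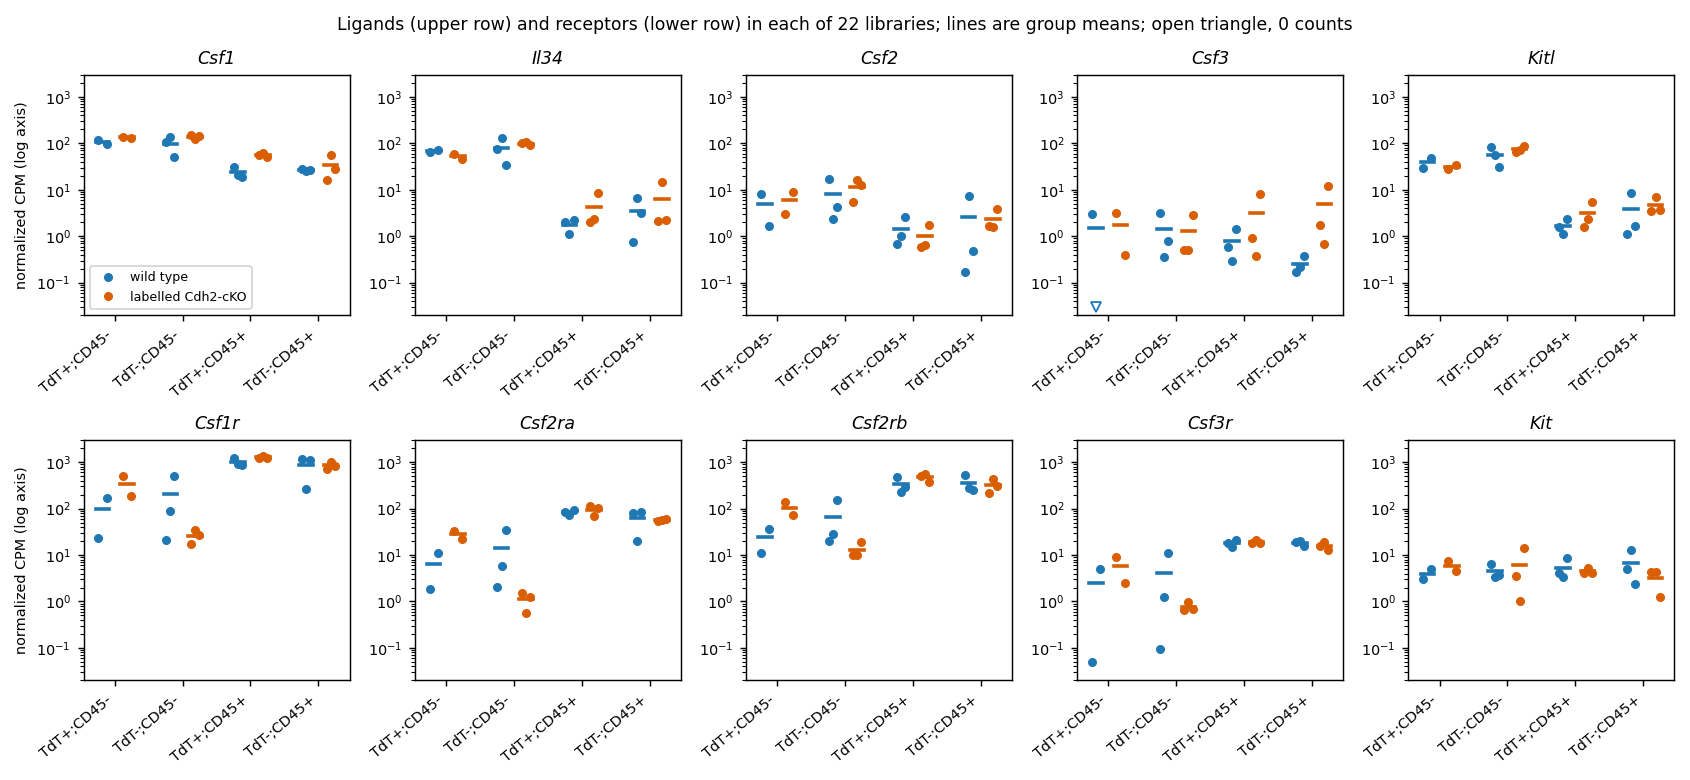
Normalized CPM (log axis) of the 5 ligands (upper row) and 5 receptors (lower row) in each of the 22 libraries, by population; points are libraries, short lines are group means, and the open triangle is a library with 0 counts. *Csf1*, *Il34* and *Kitl* are higher in the CD45- populations on the left of each panel and *Csf1r*, *Csf2ra*, *Csf2rb* and *Csf3r* in the CD45+ populations on the right, while the CD45- libraries spread widely for the receptors.

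*Csf1*, the main macrophage growth factor, was the least divided of the 3 stromal ligands. In the wild type CD45- libraries it was 120 and 97.4 normalized CPM in TdT+ cells and 104, 139 and 50.3 in TdT- cells. In the 6 CD45+ libraries the lowest, median and highest levels were 19.1, 25.9 and 31.0. The ranges did not overlap, and the level was 4.12-fold higher in CD45- cells (log2 fold change -2.04 ± 0.277 (SE), CD45+ minus CD45-, adjusted p = 1.36e-05). In the libraries labelled Cdh2-cKO it was 138 and 130 in TdT+;CD45- and 150, 122 and 140 in TdT-;CD45- cells, against 15.9, 52.8 and 61.1 as the lowest, median and highest of 6 CD45+ libraries. The difference there was -1.66 ± 0.274 (adjusted p = 0.000112), again without overlap. The CD45+ libraries thus held *Csf1* at 11.5% to 44.4% of the median of the CD45- libraries of their genotype, and the summed markers of CD45- cell types were there at 0.199% to 1.44% (7 fibroblast genes), 0.614% to 23% (6 pericyte genes), 5.90% to 142% (5 endothelial genes) and 18.3% to 74.8% (5 epithelial genes) of their CD45- medians. The 142% was in wild type TdT-;CD45+ replicate 2, where the endothelial marker *Pecam1* alone gave 199 of the summed 202 normalized CPM. *Epcam*, of the epithelial list, reached 7.87 in CD45+ and 2.04 in CD45- libraries, while *Krt18* of the same list reached 168 and 1630. Such sums do not measure the share of CD45- cells. The part of CD45- cells in the *Csf1* level of the CD45+ libraries was not tested.

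*Il34*, the second ligand of CSF1R, was the most divided. In wild type it was 63.7 and 71.8 normalized CPM in TdT+;CD45- cells and 75.2, 128 and 34.3 in TdT-;CD45- cells. Its lowest, median and highest levels in the CD45+ libraries were 0.753, 2.10 and 6.49. The log2 fold change was -4.88 ± 0.614 (adjusted p = 5.86e-06), a level 29.5-fold higher in CD45- cells. In the libraries labelled Cdh2-cKO the CD45- levels were 59.1, 44.9, 101, 105 and 89.7 and the CD45+ levels between 2.07 and 14.3, with a difference of -3.81 ± 0.583 (adjusted p = 5.45e-05). The highest of the CD45+ levels in each genotype were in single libraries, wild type TdT-;CD45+ replicate 2 and Cdh2-cKO TdT-;CD45+ replicate 2.

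Both CSF1R ligands can be set side by side only per length, as normalized RPKM. The length was that of the deposited gene, 5262 bases for *Csf1* and 1959 for *Il34*, and the lengths of the transcripts expressed were not measured. Per length, *Il34* exceeded *Csf1* in 9 of 10 CD45- libraries and in 0 of 12 CD45+ libraries, whereas in normalized CPM *Csf1* was the higher in every library. The ratio of *Il34* to *Csf1* per length was between 0.927 and 2.48 in CD45- and between 0.072 and 0.695 in CD45+ libraries, so that *Csf1* was the more abundant CSF1R ligand transcript in every CD45+ library. Among the CD45- libraries, the lowest ratios were 1.15 and 0.927 in TdT+;CD45- cells labelled Cdh2-cKO.

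**Figure D2:**
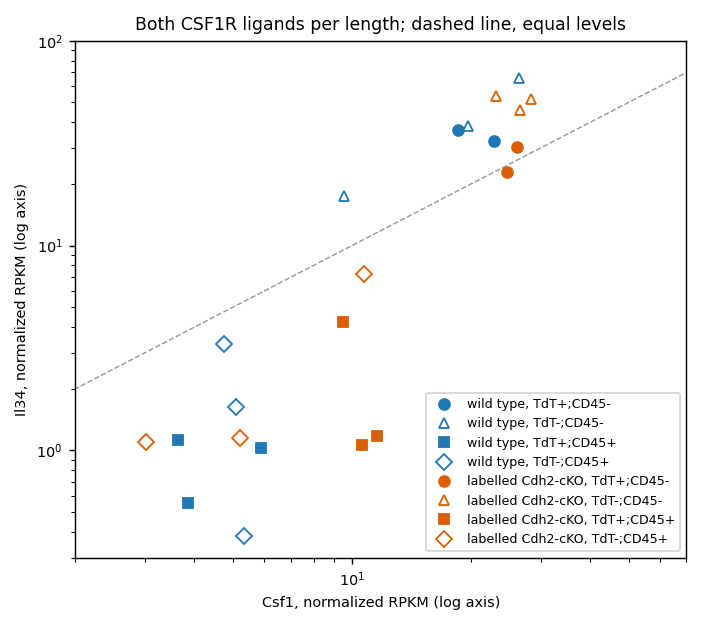
*Il34* against *Csf1* in normalized RPKM (both axes logarithmic) in each of the 22 libraries, coloured by genotype and shaped by population; the dashed line marks equal levels. The CD45- libraries lie at the upper right, 9 of 10 of them above the line, and all 12 CD45+ libraries lie below it.

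*Kitl*, which encodes the ligand of KIT, followed *Il34*. In wild type it was 29.9 and 48.3 normalized CPM in TdT+;CD45- and 82.8, 55.9 and 30.1 in TdT-;CD45- cells, and in the 6 CD45+ libraries its lowest, median and highest levels were 1.10, 1.64 and 8.57. The log2 fold change was -4.21 ± 0.485 (adjusted p = 2.17e-06). In those labelled Cdh2-cKO it was 27.9 and 34.2 in TdT+;CD45- and 66.2, 72.1 and 88.6 in TdT-;CD45- cells, against 1.58 to 7.08 in CD45+ cells, a difference of -3.66 ± 0.472 (adjusted p = 9.59e-06). The ranges did not overlap in either genotype. For *Csf1*, *Il34* and *Kitl*, all CD45+ libraries lay below all CD45- libraries in both genotypes, which held for 14.8% of all genes in wild type and 22.1% in the libraries labelled Cdh2-cKO. Markers of other CD45- cells varied among these libraries. In normalized CPM, 5 endothelial markers summed to 34.9 to 331, 6 pericyte markers to 159 to 2200 and 5 epithelial markers to 33.2 to 2070. Of the epithelial list, *Epcam* was 0 in wild type TdT+;CD45- cells, where *Krt18* was 17.5 and 407. *Krt18* was 868 to 1630 in Cdh2-cKO TdT-;CD45- cells, where *Epcam* was at most 0.128. The part of these other cells in the ligand levels was not tested.

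*Csf2*, the gene of GM-CSF, was low and uneven. In wild type it was 8.15 and 1.64 normalized CPM in TdT+;CD45- and 17.1, 2.35 and 4.24 in TdT-;CD45- cells, and its lowest, median and highest levels in CD45+ libraries were 0.174, 0.859 and 7.29. The highest of these came from TdT-;CD45+ replicate 2. In that library 5 B cell markers summed to 3230 and 6 T cell markers to 1850, against at most 21.5 and 445 in the other CD45+ libraries, and the sums of NK cell, dendritic cell and neutrophil markers were also highest there. The part of these cells in the *Csf2* level was not tested. The groups overlapped, and the difference of -1.67 ± 0.774 was not called (adjusted p = 0.0813), but it was -3.17 (adjusted p = 0.00152) without that library, where 29% of all genes were called higher in CD45- cells. In the libraries labelled Cdh2-cKO it was 3.00 and 9.02 in TdT+;CD45- and 5.37, 16.1 and 12.9 in TdT-;CD45- cells, against 0.598 to 3.87 in CD45+ cells. That difference was called (-2.44 ± 0.790, adjusted p = 0.0160), though the ranges overlapped and the call was lost without Cdh2-cKO TdT+;CD45- replicate 2 (-1.94, adjusted p = 0.0834). The difference between the genotypes was not called either (-0.77, 95% interval -3.08 to 1.54).

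*Csf3*, which encodes the neutrophil growth factor G-CSF, was low in most libraries. In wild type CD45- cells it was 2.95, 0, 3.21, 0.358 and 0.771 normalized CPM, the 0 being TdT+;CD45- replicate 2, and in CD45+ cells between 0.174 and 1.46. In the libraries labelled Cdh2-cKO it was 3.10, 0.392, 0.498, 0.503 and 2.91 in CD45- cells, and 0.925, 0.377 and 8.22 in double positive and 1.78, 0.668 and 12.1 in CD45 single positive cells. The levels of 8.22 and 12.1 were those of replicate 3 of both CD45+ populations, and no other library exceeded 3.21. The CD45 difference was not called in wild type (-1.70 ± 1.09, adjusted p = 0.208) or in the libraries labelled Cdh2-cKO (1.36 ± 1.06, adjusted p = 0.3).

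**Figure D3:**
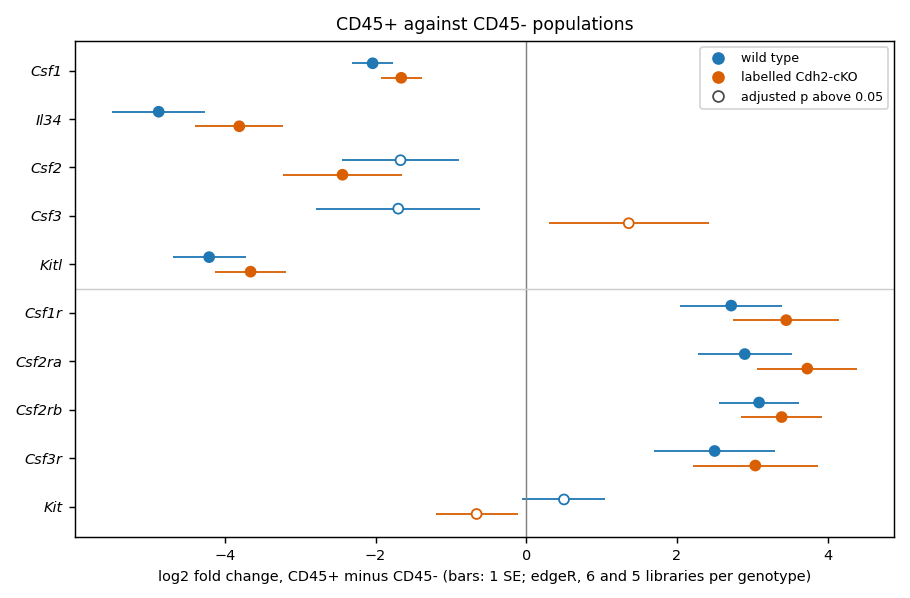
Log2 fold change of CD45+ minus CD45- populations for each gene in wild type and in libraries labelled Cdh2-cKO, with 1 standard error (edgeR, 6 CD45+ and 5 CD45- libraries per genotype); open points had an adjusted p above 0.05. The ligands except *Csf3* lie left of 0 and *Csf1r*, *Csf2ra*, *Csf2rb* and *Csf3r* right of it in both genotypes.

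Of the receptors, 4 of 5 were higher in CD45+ cells in both genotypes. *Csf1r*, the receptor of CSF1 and IL-34, was the most abundant of them in CD45+ cells, at a median of 218 normalized RPKM over 12 libraries, against 70.8 for *Csf2rb*, 41.9 for *Csf2ra*, 4.98 for *Csf3r* and 0.716 for *Kit*. In wild type it was 1200, 889 and 857 normalized CPM in double positive and 1190, 266 and 1130 in CD45 single positive cells, and 23.7, 168, 21.3, 89.1 and 501 in the CD45- libraries. The 266 of TdT-;CD45+ replicate 2 lay below the 501 of TdT-;CD45- replicate 3, so the groups overlapped. The difference was 2.72 ± 0.677 (adjusted p = 0.00323). Under the Cdh2-cKO label it was between 693 and 1330 in CD45+ cells and 491, 189, 16.9, 35.1 and 26.6 in CD45- cells, with a difference of 3.45 ± 0.706 (adjusted p = 0.000699) and no overlap. Of 50-base windows of its transcripts, 14.3% also lie in transcripts of the overlapping gene *Hmgxb3*, and reads from them may have been left uncounted as ambiguous.

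*Csf2ra*, the alpha chain that gives the GM-CSF receptor its specificity, was between 20.2 and 91.2 normalized CPM in wild type CD45+ libraries, with a median of 82.3. It was 1.85, 10.8, 2.07, 5.94 and 35 in the CD45- libraries, overlapping for the same pair of libraries as *Csf1r* (2.90 ± 0.624, adjusted p = 0.00110). Under the Cdh2-cKO label the CD45+ levels were 54.1 to 114 and the CD45- levels 33.4, 21.9, 1.55, 0.554 and 1.24 (3.73 ± 0.662, adjusted p = 0.000213).

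*Csf2rb*, the beta chain of the receptors of GM-CSF, IL-3 and IL-5, was between 221 and 514 normalized CPM in wild type CD45+ libraries and 10.9, 36.9, 19.6, 28 and 149 in CD45- libraries, without overlap (3.09 ± 0.526, adjusted p = 0.000145). Under the same label the CD45+ levels were 215 to 543 and the CD45- levels 136, 71.9, 9.96, 10.1 and 18.7 (3.39 ± 0.535, adjusted p = 7.23e-05). *Csf2rb2*, its neighbour and close copy, which serves IL-3 in mice, was 2.28 ± 0.359 higher in wild type and 3.16 ± 0.378 higher in Cdh2-cKO CD45+ cells on the log2 scale (adjusted p = 6.82e-05 and 4.36e-06). The transcripts of *Csf2rb* share 892 of 7268 windows of 50 bases with those of *Csf2rb2*, so levels of both are uncertain to that extent, since only uniquely aligned reads were counted.

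*Csf3r*, the G-CSF receptor, had a narrow range in the CD45+ libraries, at 15.2 to 21.2 normalized CPM in wild type and 12.8 to 20.9 in the libraries labelled Cdh2-cKO. In the CD45- libraries it was 0.05, 4.97, 0.0943, 1.23 and 11.0 in wild type, of which the 0.05 and 0.0943 are at most 2 counts, and 9.05, 2.44, 0.664, 0.956 and 0.685 in those labelled Cdh2-cKO. The ranges did not overlap in either genotype, and the differences were 2.50 ± 0.799 (adjusted p = 0.0151) and 3.04 ± 0.831 (adjusted p = 0.00570). The wild type call was lost without TdT+;CD45- replicate 1 (2.02, adjusted p = 0.051). Markers of neutrophils, the cells best known for this receptor, summed to 56.9 to 811 normalized CPM over 9 genes in the CD45+ libraries, where 9 macrophage markers summed to 3430 to 16100. Both the 811 and the 3430 were in wild type TdT-;CD45+ replicate 2, and without it the sums were 56.9 to 119 and 10600 to 16100. Of the neutrophil markers, *Ngp* was at 0 in Cdh2-cKO TdT-;CD45+ cells, and the part of neutrophils in the *Csf3r* level was not tested. Of the 50-base windows of its transcripts, 10.7% are shared with those of other genes. In wild type 2 of the 10 genes, *Csf2rb* and *Csf3r*, had every CD45+ library above every CD45- library, as did 6.19% of all genes, and in the libraries labelled Cdh2-cKO 4 did, as did 16.9% of all genes.

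*Kit* was low in all populations and was the receptor with no call. It ranged from 2.40 to 12.5 normalized CPM in wild type CD45+ and from 3.00 to 6.32 in wild type CD45- libraries, and from 1.25 to 5.28 and from 1.01 to 14 in those labelled Cdh2-cKO. The differences of 0.50 ± 0.551 (adjusted p = 0.473) and -0.66 ± 0.544 (adjusted p = 0.329) were not called, with 95% intervals of -0.66 to 1.66 and -1.81 to 0.48. The highest levels were 14 in Cdh2-cKO TdT-;CD45- replicate 3 and 12.5 in wild type TdT-;CD45+ replicate 2, where the mast cell protease gene *Cpa3* was 23.9 and 14.5. *Cpa3* was 60.0 and 52.9 in wild type TdT+;CD45- replicate 2 and Cdh2-cKO TdT+;CD45- replicate 1, where *Kit* was 4.93 and 7.31. The sum of 8 mast cell markers was between 0.75 and 842 in CD45- and between 6.58 and 140 in CD45+ libraries, with *Ms4a2* at 0 in Cdh2-cKO double positive cells. The part of mast cells in the *Kit* level was not tested.

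Among the CD45- libraries, *Csf1r*, *Csf2ra*, *Csf2rb* and *Csf3r* were highest in those with the most *Ptprc*, though not in step with it, and *Kit* was not. Set as a percentage of the median of the 6 CD45+ libraries of the genotype, *Csf1r* was 49.5% in wild type TdT-;CD45- replicate 3, where *Ptprc* was 54.7% and the sum of 9 macrophage markers 69.4%. In Cdh2-cKO TdT+;CD45- replicates 1 and 2 *Csf1r* was 44.6% and 17.2% and *Ptprc* 31.4% and 16.9%. *Csf2ra* was 51.9% and 34% there, *Csf2rb* 33.8% and 17.9%, and *Csf3r* 50.4% and 13.6%. In the 3 Cdh2-cKO TdT-;CD45- libraries *Csf1r* was 1.53% to 3.19% and *Ptprc* 1.93% to 3.20%. In wild type TdT+;CD45- and TdT-;CD45- replicates 1, the libraries with the least *Ptprc* (0.389% and 0.741%), *Csf1r* was at 2.34% and 2.11%, *Csf2ra* at 2.25% and 2.52%, *Csf2rb* at 3.84% and 6.91% and *Csf2rb2* at 11.9% and 16.7%, all above *Ptprc*, while *Csf3r* was at 0.271% and 0.511%. *Kit* was 334% in Cdh2-cKO TdT-;CD45- replicate 3, where *Ptprc* was 2.18%, and 80.7% in wild type TdT-;CD45- replicate 3. The part of leukocytes left in the CD45- sorts in these receptor levels was not tested. In sorted bulk samples, fewer cells of a type and less RNA per cell cannot be told apart.

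**Figure D4:**
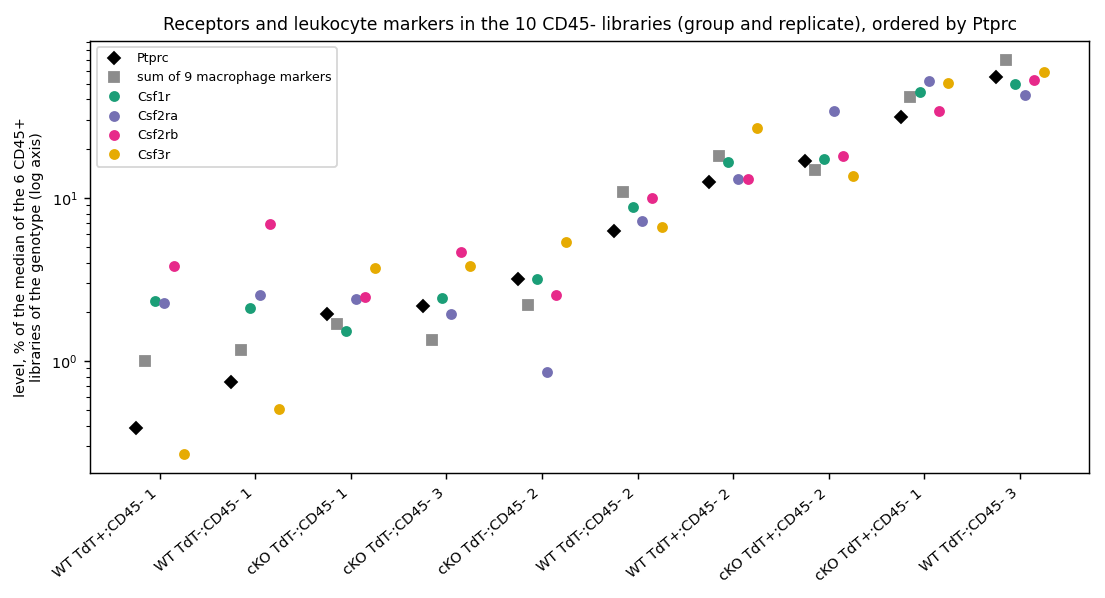
Level of 4 receptors, *Ptprc* and the sum of 9 macrophage markers in each of the 10 CD45- libraries, as a percentage of the median of the 6 CD45+ libraries of the same genotype (log axis), ordered by *Ptprc*. The receptors are highest in the libraries on the right, with the most *Ptprc*, but do not rise at every step. On the left *Csf2ra* and *Csf2rb* do not rise with *Ptprc*. *Csf1r*, *Csf2ra* and *Csf2rb* lie above it in both libraries with the least *Ptprc*.

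The CD45 effect itself was compared between the genotypes by an interaction in the same fit, and 0 of the 10 genes was called. Of all genes 0% were called by edgeR and by limma's voom test, and 30 genes by DESeq2, while 1174 genes and 0 of the 10 had an unadjusted p under 0.05 in edgeR. The widest gap was that of *Csf3* (3.06, 95% interval -0.15 to 6.27). The interval for *Csf1* (0.39, -0.43 to 1.20) was the narrowest, and leaves room for a difference of the CD45 effect of up to 1.20 on the log2 scale.

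Next, the TdT+ and TdT- populations were compared at equal CD45, to see whether descendants of Osx-expressing cells differed. Within CD45- cells 2.04% of all genes were called and 0 of the 10 genes. *Csf2ra* alone had an unadjusted p under 0.05 (log2 fold change 1.73 ± 0.602, TdT+ minus TdT-, adjusted p = 0.128 by edgeR), and limma's voom and DESeq2 both called it (2.32 and 1.82, adjusted p = 0.0363 and 0.0344), beside 2.40% and 3.44% of all genes called higher in TdT+ cells. For *Csf1* the difference was 0.06 (95% interval -0.54 to 0.67), and *Kitl* was 35.1 in TdT+ and 66.0 in TdT- cells as means of group means (-0.90 ± 0.471, adjusted p = 0.308). Fitted by genotype, the receptor values had opposite signs, and those of one genotype were called. In the Cdh2-cKO libraries alone, *Csf1r*, *Csf2ra*, *Csf2rb* and *Csf3r* were 3.79, 4.72, 3.09 and 3.00 higher in TdT+ cells on the log2 scale (adjusted p = 6.6e-05, 2.61e-05, 0.000239 and 0.00119), and 7.72% of the 14181 genes tested there were called higher in TdT+ cells. In the wild type libraries alone they were -1.09, -1.18, -1.46 and -0.69, none of them called. The difference between the genotypes was a contrast added after the values were seen. It was 4.78 ± 1.36 for *Csf1r*, 5.79 ± 1.30 for *Csf2ra*, 4.46 ± 1.03 for *Csf2rb* and 3.57 ± 1.64 for *Csf3r*. None was called (adjusted p = 0.152, 0.119, 0.126 and 0.475 by edgeR). *Ptprc* had a like difference of 4.99 ± 1.71 (adjusted p = 0.215). Without wild type TdT-;CD45- replicate 3, the CD45- library with the most *Ptprc*, 3 of the 10 genes were called in the pooled comparison, *Csf1r*, *Csf2ra* and *Csf2rb* (2.25, 2.65 and 1.51, adjusted p = 0.0289, 0.0111 and 0.0315), all higher in TdT+ cells, as were 3.22% of the 15004 genes tested.

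Within CD45+ cells 0.00666% of all genes were called, a single gene, and 0 of the 10, none of which had an unadjusted p under 0.05. The log2 fold changes of the 10 lay between -1.06 for *Csf2* and 0.58 for *Csf2ra*. Limma's voom called 1 gene and DESeq2 6 genes, none of the 10 among them. For *Csf1r*, the most abundant receptor, the 95% interval of the difference was -0.83 to 1.60, and these 12 libraries do not bound it more tightly.

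The libraries labelled Cdh2-cKO were then compared with wild type within each population. In TdT+;CD45- cells 0.00666% of all genes were called, a single gene, and 0 of the 10. *Csf2ra* and *Csf2rb* had unadjusted p values under 0.05 (both 2.12, adjusted p = 0.451 and 0.387 by edgeR). *Ptprc* was 1.64 ± 1.27 higher in the same comparison. In TdT-;CD45- cells 0% were called by edgeR and by voom and 522 genes by DESeq2, with 1397 genes at an unadjusted p under 0.05 in edgeR. There 4 of the 10 had an unadjusted p under 0.05, all receptors and all lower in the libraries labelled Cdh2-cKO: *Csf1r* by -2.96 ± 0.877, *Csf2ra* by -3.68 ± 0.861, *Csf2rb* by -2.34 ± 0.652 and *Csf3r* by -2.40 ± 1.09 on the log2 scale (adjusted p = 0.195 for the first 3 and 0.493). DESeq2 called the first 3, with 3.29% of all genes called lower. Without wild type replicate 3, the library with the most *Ptprc*, the values were -1.07, -1.84, -0.88 and 0.23 (adjusted p = 1 each, edgeR). *Ptprc* moved with them, by -3.36 ± 1.11, from a mean of 127 in wild type to 12.4 normalized CPM. Of the ligands in these cells, none had an unadjusted p under 0.05, and *Csf1* was at 137 ± 14.1 (SD, n = 3) in the libraries labelled Cdh2-cKO and 97.6 ± 44.6 (n = 3) in wild type (0.49, 95% interval -0.28 to 1.26). The intervals were wider for *Il34* (0.31, -1.19 to 1.82) and *Kitl* (0.43, -0.80 to 1.65).

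In double positive cells 0% of all genes were called by edgeR and by voom and 1 by DESeq2, with 518 genes at an unadjusted p under 0.05. *Csf1* was the 1 member among those 518: it was 55.7, 61.1 and 50 normalized CPM in the libraries labelled Cdh2-cKO and 31.0, 20.3 and 19.1 in wild type. The difference of 1.25 ± 0.371 did not hold after adjustment (unadjusted p = 0.00364, adjusted p = 1 by edgeR). In CD45 single positive cells 0% were called by edgeR and by voom and 26 genes by DESeq2, with 1341 genes at an unadjusted p under 0.05. *Csf3* was the 1 member among these, at 1.78, 0.668 and 12.1 against 0.174, 0.213 and 0.366 (4.23 ± 1.62, unadjusted p = 0.0179, adjusted p = 0.482), and the wild type values rest on 3 to 7 counts per library.

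The order of the 8 groups followed from these differences. For *Csf1*, *Il34* and *Kitl* the 4 CD45- groups held ranks 1 to 4 by mean level, and for *Csf1r*, *Csf2ra*, *Csf2rb* and *Csf3r* the 4 CD45+ groups did. The ranges of rank 4 and rank 5 did not overlap for *Il34* and *Kitl* (Cdh2-cKO TdT+;CD45- over Cdh2-cKO TdT-;CD45+) or for the 4 receptors (Cdh2-cKO TdT-;CD45+ over Cdh2-cKO TdT+;CD45-), while they did for *Csf1*, between wild type TdT-;CD45- and Cdh2-cKO double positive cells. The other neighbours whose ranges were apart were ranks 2 and 3 of *Csf1*, 3 and 4 of *Il34*, 1 and 2 of *Csf1r*, and 7 and 8 of *Csf2ra*, and all remaining neighbours overlapped. Groups of 2 or 3 libraries were ordered here by these same levels, so the gaps between neighbours are descriptions only. Their share over all genes was not counted. For *Csf2* 7 of 7 neighbouring ranges overlapped, and so they did for *Csf3* and *Kit*. At the low end, *Csf1r* was 26.2 in Cdh2-cKO TdT-;CD45- cells and 1260 in Cdh2-cKO double positive cells.

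Genes whose levels followed each member most closely were found by Pearson's r of log2 levels over the 22 libraries, given as a description. The libraries share the split by CD45 and, within a library, its depth. Nearest to *Csf1* were *Dap*, *Adgrl3* and *Cyb561* (0.96, 0.96 and 0.95), to *Il34* *Fhl2*, *Epn2* and *Map1b* (0.99 each), and to *Kitl* *Nedd4*, *Fhl2* and *Pfn2* (0.99, 0.98 and 0.98). Nearest to *Csf1r* were *Bmyc*, *Slc37a2* and *Pilra* (0.99 each), to *Csf2ra* *Kcnk13*, *Zmynd15* and *Cxcl16* (0.98 each), to *Csf2rb* *Gm2a*, *Nod2* and its copy *Csf2rb2* (0.98 each), and to *Csf3r* *Myo1f*, *Pik3ap1* and *Myo1g* (0.99 each). The nearest genes to *Csf2*, *Csf3* and *Kit* reached 0.90, 0.76 and 0.80 (*Gm26873*, *Arl15* and *Bdh1*).

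The other genes of these pathways were described by lists. Of all genes tested, 24.4% were called higher and 26.4% lower in wild type CD45+ cells. In those labelled Cdh2-cKO the shares were 22.6% and 27.8%, and each list below is to be read beside them. Of 21 genes that carry the signal from the receptors, 13 were higher and 2 lower in wild type CD45+ cells, and 13 and 1 in those labelled Cdh2-cKO, with median log2 fold changes of 0.93 and 1.19. The members with the smallest adjusted p were *Syk*, a kinase recruited below CSF1R (2.68 and 2.96, adjusted p = 0.0002 and 9.47e-05), and *Pik3cd*, a leukocyte PI3-kinase subunit (2.25 and 2.52, adjusted p = 0.000218 and 9.02e-05). *Stat5a*, a transcription factor activated by GM-CSF, was 0.89 and 0.78 higher (adjusted p = 0.0151 and 0.0297), whereas the kinase *Jak2*, which joins the beta chain, was -0.17 and 0.02 (adjusted p = 0.621 and 0.964).

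Of 10 negative regulators, 5 were higher and 1 lower in wild type CD45+ cells, and 6 and 1 in those labelled Cdh2-cKO. *Cish*, an inhibitor induced by STAT5, was 2.37 and 1.63 higher (adjusted p = 0.00206 and 0.0167), and *Dok1*, an adaptor that dampens tyrosine kinase signals, was lower (-1.50 and -1.58, adjusted p = 2.22e-05 and 1.46e-05). *Socs3*, which restrains G-CSF receptor signalling, was -0.07 and 0.44 (adjusted p = 0.806 and 0.0765). Of 6 genes for shedding and alternative binding partners, 5 were tested, and 3 were higher and 1 lower in both genotypes. *Adam17*, the protease that releases CSF1R, was 1.02 and 1.12 higher (adjusted p = 0.000826 and 0.000372). *Sdc1*, a syndecan that binds IL-34, was lower in CD45+ cells like *Il34* itself (-3.79 and -3.75, adjusted p = 1.3e-06 and 1.95e-06).

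Of 10 myeloid transcription factors, 6 were higher and 2 lower in wild type CD45+ cells, and 8 and 2 in those labelled Cdh2-cKO. *Spi1* (PU.1) was 2.91 and 3.79 higher (adjusted p = 0.00832 and 0.00202). *Gata2*, a factor of progenitors and mast cells, was lower (-3.31 and -3.48, adjusted p = 2.82e-05 and 2.02e-05). Of 11 inducers and RNA-stability regulators of *Csf2* and *Csf3*, 7 were higher and 1 lower in wild type CD45+ cells, and 6 and 1 in those labelled Cdh2-cKO. *Il1b*, an inducer of both genes in stromal cells, was 3.92 and 4.16 higher (adjusted p = 0.0004 and 0.000259), and its receptor *Il1r1* was lower (-5.58 and -4.31, adjusted p = 6.81e-08 and 1.08e-06). The inducers *Il1a* and *Tnf* also were higher in CD45+ cells of both genotypes (3.90 and 4.02 for *Il1a*, 2.34 and 3.87 for *Tnf*). Of 11 other hematopoietic growth factors and receptors, 4 were tested: 2 were higher and 2 lower in wild type CD45+ cells, and 1 and 1 in those labelled Cdh2-cKO. Apart from *Csf2rb2*, described above, the call shared by both genotypes was *Thpo*, the gene of thrombopoietin, lower in CD45+ cells with means of at most 1.11 normalized CPM.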

How the data were processed

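RNA had been sequenced from 22 libraries as single-end reads of 50 bases after cDNA amplification, without molecular identifiers. The authors aligned the reads to GRCm38 (Ensembl release 76) with STAR 2.0.4b and made the deposited counts, the uniquely aligned unambiguous reads per gene, with featureCounts; the labels give its version as 1.45, and whether strand was used is not given in the sources used here. The deposited CPM and RPKM were computed by the authors from these counts and were read as a check alone, with a largest relative deviation of 5.1e-14.

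Counts were analysed in R 4.3.3. After 355 rRNA genes had been removed, 15018 genes passed 1 CPM in 2 or more of the libraries. With TMM factors (0.821 to 1.18), the quasi-likelihood fit of edgeR 4.0.16 had 1 mean for each of the 8 groups, on 14 residual degrees of freedom. P-values were adjusted over all 15018 genes and called at 0.05. Each edgeR standard error was derived from its test, as the absolute log2 fold change divided by the square root of F. The 95% intervals were built from it with the degrees of freedom of that test. The labels call the samples biological replicates but do not tie libraries to mice, so populations compared may share an animal, and p-values measure the spread between these libraries. Limma 3.58.1 (voomWithQualityWeights, the test named in the paper's methods), DESeq2 1.42.0 and the other alternatives listed under the dependence on the processing were run beside it. Whether the same replicate numbers in different populations mark pairs is not known. Of 30 such pairs of deviations from group means, 9 correlated above 0.1 (-0.3 to 0.59). Libraries with different numbers were not compared in this way, so the check cannot decide it. The main fit had no block, and the replicate number as a block was run as an alternative. The fits were also run on simulated counts of independent libraries, with known changes between the CD45 classes only. Such counts hold no outlying libraries and no shared animals, so they cannot show how the fits behave with either.

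Normalized RPKM are normalized CPM per kilobase of the deposited gene length. The 10 genes, the pathway lists and the marker lists were chosen with earlier results of these data known. Named genes are the 10, *Ptprc*, *Sp7* and *Cdh2*, members of each pathway list with the smallest adjusted p, and the 3 genes most like each of the 10. *Cd3e*, *C1qa*, *Cpa3*, *Ms4a2*, *Ngp*, *Epcam*, *Krt18*, *Pecam1*, *Csf2rb2*, *Stat5a*, *Jak2*, *Cish*, *Socs3*, *Adam17*, *Sdc1*, *Spi1*, *Gata2*, *Il1a*, *Tnf* and *Thpo* were also named for their role, with their values seen. Promoters and their positions are from RefSeq (GRCm38.p6), and transcripts for the shared windows from GENCODE release M21. *Flt3l* was not analysed here.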

Additional observations from a re-analysis of the deposited data

How the results depend on the processing

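The alternatives were voom, DESeq2, RLE factors, no filter on low counts, an added fold threshold of log2 2, the replicate number as a block, the libraries of one genotype or population alone, leaving out wild type TdT-;CD45+ replicate 2 and TdT-;CD45- replicate 3 together, and leaving out each library in turn. The 7 calls in wild type and 8 in Cdh2-cKO libraries between CD45+ and CD45- cells stayed within 1.5 times of those counts in all of them. With the replicate block they were 7 and 8, and the block called 0 of the 10 genes in every other comparison. Of the single values, *Csf2* in wild type was called with voom (-2.16), DESeq2 (-1.72), without both libraries (-3.32) and without TdT-;CD45+ replicate 2 (-3.17), and *Csf3r* in wild type was not called in wild type libraries alone (2.5, adjusted p = 0.0858, edgeR on fewer libraries).

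The comparison of TdT+ with TdT- cells within CD45- depended on the setting. Of the 10 genes it called 1 with voom, 1 with DESeq2, 4 in Cdh2-cKO libraries alone and 5 without both libraries that stood apart, and between 0 and 3 when single libraries were left out, 3 without wild type TdT-;CD45- replicate 3. In wild type libraries alone the receptors turned sign, to -1.09 for *Csf1r*, -1.18 for *Csf2ra*, -1.46 for *Csf2rb* and -0.69 for *Csf3r*, none of them called, and *Csf3r* ranged from -1.58 to 2.43 over the libraries left out. In double negative cells the comparison of genotypes called 3 of the 10 with DESeq2 and between 0 and 3 without single libraries, 3 without wild type replicate 1. Of all genes, DESeq2 called 522 of 15018 there, and the fit without wild type TdT-;CD45- replicate 1 called 604 of 14937. In the same comparison *Csf3r* was 0.24 without both libraries and ranged from -3.03 to 0.23, so its direction rested on wild type TdT-;CD45- replicate 3. Between CD45+ and CD45- cells, *Csf3* in wild type was 0.65 with voom and ranged from -2.16 to 2.23 (positive without TdT+;CD45- replicate 1), and *Kit* in Cdh2-cKO libraries ranged from -0.91 to 0.06 (positive without TdT-;CD45- replicate 3). The cause was not tested. Among all alternative values of the 10 genes in the 9 comparisons, 96 had the other sign, 10 of them for values given above, and in none was the gene called in either fit.

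Over all genes, the fold threshold left 3585 and 3577 calls between CD45+ and CD45- cells of 7627 and 7579. Within CD45- cells the 307 calls for TdT became 622 with voom, 982 with DESeq2, 293 with RLE factors, 92 without a filter, 43 with the fold threshold, 129 with the block, 0 in wild type and 1149 in Cdh2-cKO libraries, 1403 without both libraries, and 20 to 806 without single libraries. Within CD45+ cells DESeq2 called 6 genes and wild type libraries alone 0. Between genotypes in TdT+;CD45- cells voom and that population alone called 0, DESeq2 134, the fit without both libraries 77, and fits without single libraries 0 to 89. In TdT-;CD45- cells DESeq2 called 522 and fits without single libraries 0 to 604, and for the difference of the CD45 effect 30 and 0 to 15. Depth limits *Csf3* and, in CD45- cells, *Csf3r*, which lay at 3 counts or fewer in 2 and 2 of the libraries.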
